A study of Mus musculus with 7 samples.

Results

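Genes of the striated muscle response to mechanical load, 9 in number, were followed in the fast-twitch tibialis anterior (TA) of mice with and without fast myosin-binding protein C (fMyBP-C). They were chosen by symbol: the muscle ankyrin repeat genes *Ankrd1*, *Ankrd2* and *Ankrd23*, the LIM domain genes *Csrp3*, *Fhl1* and *Fhl3*, the Xin repeat genes *Xirp1* and *Xirp2*, and the cardiac actin gene *Actc1*. All 9 were among the 12239 genes of the deposited table. The libraries came from 4 wild-type (WT) FVBN male mice and 3 C2-/- male mice, all aged 5 to 6 months by their titles. In C2-/- mice *Mybpc2* exons 2 to 22 are replaced by a loxP-flanked neomycin cassette, an allele that is constitutive and not restricted to muscle or to adult life. The design text gives 4 animals per group, and 3 C2-/- libraries were analysed here.

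Ankyrin repeat proteins of this family sit in the I-band, where they bind the N2A region of titin, and they can also enter the nucleus. LIM domain proteins carry paired zinc fingers that hold other proteins at the Z-disc, the I-band and the nucleus, and Xin repeat proteins bind and protect actin filaments at sites of strain. *Actc1* encodes the striated actin of heart and of fetal and regenerating skeletal muscle, whereas *Acta1* encodes that of adult skeletal muscle. Several of these genes are known to rise with stretch, denervation, injury or regeneration of skeletal muscle.

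Levels are given as log2 CPM (counts of reads per gene, scaled to 1e6 by the trimmed mean of M values method), and changes are C2-/- minus WT on that log2 scale. The targeted gene *Mybpc2* had values of 12.68, 12.85, 12.41 and 12.51 in WT replicates 1 to 4 and of 1.16, 1.67 and -0.47 in C2-/- replicates 1 to 3, so each library matched its label (change -11.82, limma adjusted p = 4.85e-07). The table held 14929214 to 15464499 reads for WT replicates 1 to 3, 4683853 for WT replicate 4 and 2613277 to 4917936 for C2-/-. WT replicate 4 was therefore the only WT library as shallow as the C2-/- libraries. Depth and genotype cannot be fully told apart in these samples. Fast fibre markers summed to 160742 to 186351 CPM in WT and 101300 to 154897 in C2-/-, and slow fibre markers to 77.4 to 144 and 79.8 to 106, so fast fibre transcripts predominated. Of the 10 fast markers 4 were called lower (*Mylpf*, *Atp2a1*, *Pvalb* and *Actn3*) and 0 higher by limma (25.0% and 20.2% over all genes), and 1 lower and 1 higher after correction for GC content (8.33% and 12.3%). The top of the C2-/- range rests on *Myl1* in replicate 3, at 15.23 against 12.02 and 12.08 in the other C2-/- libraries. Their part in the changes described next was not tested.

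The 9 genes did not move together. *Ankrd1* and *Fhl1* rose, by 5.53-fold and 2.72-fold. *Ankrd23*, *Fhl3* and *Xirp1* fell, by 2.39-fold, 2.61-fold and 1.71-fold. *Ankrd2*, *Csrp3*, *Xirp2* and *Actc1* did not pass the threshold, which was a limma adjusted p under 0.05 over all genes and a fold change above 1.5. The 5 genes past it compare with 45.2% of all genes tested, 20.2% higher and 25.0% lower, so the share of the 9 that moved was near that of the table. The C2-/- values lay wholly on one side of the WT values for 4 of the 9 genes (*Ankrd1* and *Fhl1* above, *Ankrd23* and *Fhl3* below), compared with 49.3% of all genes, 22.6% above and 26.7% below. The median change was 0.54 over the 9 genes and -0.14 over all genes, and 0.91 and 0.02 after the GC correction described further on. In whole-muscle RNA, fewer cells of a type and less RNA per cell cannot be told apart.

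**Figure D1:**
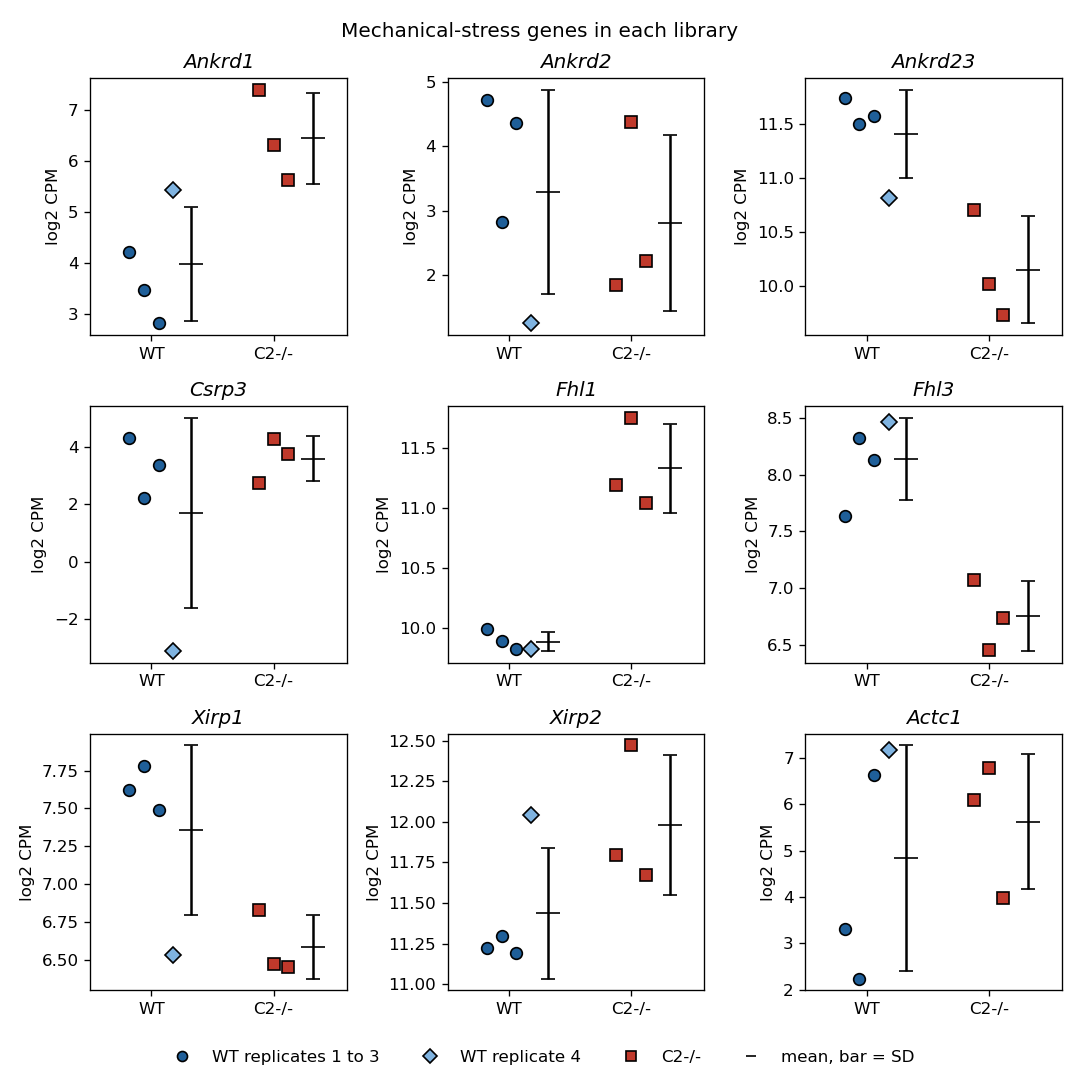
Each panel gives the log2 CPM of one gene in each library (y axis, not starting at 0), for 4 WT libraries (blue, WT replicate 4 as a light diamond) and 3 C2-/- libraries (red squares), with the mean and SD beside them. The C2-/- points lie wholly above WT for *Ankrd1* and *Fhl1* and wholly below for *Ankrd23* and *Fhl3*.

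The promoters were searched for motifs of load-responsive and muscle transcription, and matches are shown for the 2 genes that rose and for *Actc1*, the most scattered gene after *Csrp3*. RefSeq windows of 250 bases before the start (GRCm38.p6) were held for 8 of the 9 genes, 11 windows in all. The motifs searched, on both strands, were CATTCC, the MCAT element of TEAD factors, the CArG box of serum response factor, and the MEF2 site. The MCAT letters were found in 12.6% of 32851 windows of this length, the CArG box in 1.47% and the MEF2 site in 2.92%. Both matches of *Ankrd1* were MCAT elements in the reverse orientation, 210 and 123 bases before the start (first base). They lie inside the first exon of an annotated transcript with an earlier start, so only 30 bases around each are shown, on the minus strand at chr19:36120037-36120066 and chr19:36119950-36119979. *Fhl1* had a CArG box 102 bases before one of its starts, shown on the plus strand at chrX:56779524-56779682. *Actc1* had one 47 bases before its start, shown on the minus strand at chr2:114052888-114053125. Capitals mark the matches.
Ankrd1, farther match: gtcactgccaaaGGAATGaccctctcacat
Ankrd1, nearer match: gacactaagtctGGAATGaaaattcacctg
Fhl1: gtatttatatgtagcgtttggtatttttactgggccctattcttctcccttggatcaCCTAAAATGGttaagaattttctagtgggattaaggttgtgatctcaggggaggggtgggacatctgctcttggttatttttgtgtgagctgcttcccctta
Actc1: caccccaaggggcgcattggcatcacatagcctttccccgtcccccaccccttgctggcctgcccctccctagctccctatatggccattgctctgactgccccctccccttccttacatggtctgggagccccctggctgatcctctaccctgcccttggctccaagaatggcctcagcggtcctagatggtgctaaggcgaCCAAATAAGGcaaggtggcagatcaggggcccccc
One of the 2 *Ankrd23* windows also held an MCAT element, and that of *Xirp2* held a MEF2 site, while *Ankrd2*, *Csrp3* and *Fhl3* held none of these letters. The 2 genes that rose thus shared none of the 3 motifs in these windows. A match is a description of letters and not a bound site.

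*Ankrd1* (chromosome 19, 36111961 to 36120099, minus strand) encodes CARP, a titin-binding ankyrin repeat protein that is scarce in resting fast muscle. Its values were 4.21, 3.47, 2.81 and 5.42 in WT replicates 1 to 4 and 7.39, 6.32 and 5.62 in C2-/- replicates 1 to 3, from 107 to 488 reads. All C2-/- libraries were above all WT libraries, but WT replicate 4 lay only just under the lowest of them. The change was 2.47 (SE 0.58, 95% interval 1.17 to 3.76, limma adjusted p = 0.00725). It stayed past the threshold when any of the 7 libraries was left out. Against WT replicate 4 alone it was 1.02, and with the read total of each library as a covariate it was 0.36, both no longer past the threshold, while 4.53% and 6.08% of all genes passed in those fits. In the fit against 1 WT library only the C2-/- libraries give the spread, and that library is assumed to vary like them.

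*Ankrd2* (chromosome 19, 42036000 to 42045110, plus strand) encodes a related protein found mainly in slow fibres. Its values were 4.71, 2.83, 4.36 and 1.26 in WT and 1.85, 4.38 and 2.22 in C2-/-. The C2-/- values lay inside the WT range, and the lowest value, in WT replicate 4, rested on 10 reads. The change was -0.47 (95% interval -2.37 to 1.42, limma adjusted p = 0.666), an interval that leaves room for more than a 2-fold difference in either direction.

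*Ankrd23* (chromosome 1, 36530188 to 36536883, minus strand) encodes DARP, the third member of the family, and had the highest length-scaled level of the 9 genes in WT. It stood at 11.74, 11.50, 11.57 and 10.81 in WT and 10.70, 10.01 and 9.73 in C2-/-. Every C2-/- library was below every WT library, with WT replicate 4 nearest to them. The change was -1.26 (SE 0.28, 95% interval -1.89 to -0.63, limma adjusted p = 0.00579). The call was lost under GC correction (-0.09), against WT replicate 4 alone (-0.66) and with the read total as a covariate (-0.82). The predicted coding gene Gm42417 overlaps its exons on the same strand, so reads of the 2 could be shared. Within the family, the gene that rose was thus one of low level and the gene that fell the one of highest level per kilobase.

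*Csrp3* (chromosome 7, 48830398 to 48848033, minus strand) encodes muscle LIM protein, a Z-disc protein of heart and slow fibres. It had 310, 69, 159 and 0 reads in WT and 19, 52 and 65 in C2-/-, or log2 values of 4.34, 2.22, 3.38 and -3.14 against 2.75, 4.30 and 3.76. Leaving out WT replicate 4, with no read, the groups overlapped closely and the change fell to 0.29 from 1.90 (95% interval of the latter -1.32 to 5.12, limma adjusted p = 0.296). A count of 0 there allows up to 0.683 CPM, and the C2-/- libraries stood at 6.54, 19.5 and 13.5 CPM. Set against WT replicate 4 alone, *Csrp3* was at least 9.58-fold higher in the lowest C2-/- library, a comparison with 1 WT library.

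The spread of *Csrp3* and *Ankrd2* in WT was unusual. Among genes averaging 1 log2 CPM or more, their WT SDs ranked at percentiles 99.99 and 99.5. The *Csrp3* SD of 3.34 rests on the library with 0 reads, whose value is set by the 0.5 reads added, and is 1.06 without it. Some slow fibre markers were also lowest in that library. The mean of 7 slow markers, each centred on its own mean over the libraries, was 0.91, -0.25, 1.66 and -1.52 in WT replicates 1 to 4 and -0.78, -0.11 and 0.09 in C2-/-. It was lowest in WT replicate 4, the library in which both genes were lowest. That low mean was carried by markers of few reads there, *Myh7* and *Tnnt1* at 0, *Tnnc1* at 1, *Myl3* at 2 and *Myh7b* at 4. The 2 most abundant, *Atp2a2* (5.48, 5.45, 5.63 and 5.38 in WT) and *Tpm3* (4.92, 4.60, 5.42 and 5.10), showed no such dip, and the summed CPM of 77.4 there was close to the 79.1 of WT replicate 2. Of these 7 markers 0 passed the limma threshold between groups, compared with 45.2% of all genes. After GC correction 1 was higher and 0 lower (12.3% and 8.33% over all genes). In every library at once, 0 of the 7 markers were at 0 reads. Their part in the spread was not tested.

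*Fhl1* (chromosome X, 56731787 to 56793346, plus strand) encodes a LIM-only protein of the sarcomere that binds titin and is mutated in several human myopathies. Its values were 9.996, 9.90, 9.83 and 9.83 in WT and 11.19, 11.75 and 11.04 in C2-/-, from 4002 to 15668 reads. The WT libraries differed by only 0.17, WT replicate 4 included, and every C2-/- library was more than 1 log2 unit above them. The change was 1.44 (SE 0.20, 95% interval 1.005 to 1.88, limma adjusted p = 0.000638). It was past the threshold under all 21 alternative fits, at 1.23 to 1.70, including 1.32 with the read total as a covariate (adjusted p = 0.049961) and 1.499 against WT replicate 4 alone, where the spread again comes from the C2-/- libraries only. *Fhl1* was the only one of the 9 genes past the threshold in every fit.

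*Fhl3* (chromosome 4, 124700701 to 124708611, plus strand) encodes a second LIM-only protein, which binds actin. It stood at 7.64, 8.32, 8.13 and 8.47 in WT and 7.07, 6.46 and 6.74 in C2-/-, opposite in direction to *Fhl1*. All C2-/- libraries were below all WT libraries, and WT replicate 4 was the highest. The change was -1.39 (SE 0.23, 95% interval -1.89 to -0.89, limma adjusted p = 0.00134), and it was -1.71 against WT replicate 4 alone. It did not survive a correction for GC content, given further on.

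*Xirp1* (chromosome 9, 120013755 to 120023598, minus strand) and *Xirp2* (chromosome 2, 67446002 to 67526614, plus strand) encode Xin and XIRP2 (myomaxin), which bind actin filaments at the myotendinous junction and at the Z-disc. *Xirp1* had values of 7.62, 7.78, 7.49 and 6.53 in WT and 6.83, 6.47 and 6.45 in C2-/-, so that WT replicate 4 lay among the C2-/- libraries. The change was -0.77 (SE 0.28, 95% interval -1.39 to -0.15, limma adjusted p = 0.0441), close to the threshold, and it was past it in only 1 of the 7 fits that left out a library, the one without WT replicate 4, at -1.04, in which 50.1% of all genes passed. Xin's gene lies within the annotated span of *Cx3cr1* on the same strand.

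*Xirp2* stood at 11.22, 11.30, 11.19 and 12.04 in WT and 11.80, 12.47 and 11.67 in C2-/-. WT replicates 1 to 3 were tightly grouped below every C2-/- library, while WT replicate 4 exceeded 2 of the 3. The change was 0.54 (95% interval -0.07 to 1.16, limma adjusted p = 0.130), and 0.74, past the threshold, without WT replicate 4. The change was also past it with quantile normalization, at 0.79 (limma adjusted p = 0.0259), as were 5643 of 12239 genes. On the deposited values it was 0.30 without C2-/- replicate 2 and -0.06 against WT replicate 4 alone. An antisense gene, Gm13601, overlaps *Xirp2*, and a processed transcript on the opposite strand overlaps *Actc1*. The use of strand in counting was not stated, so these reads cannot be separated.

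Markers of the myotendinous junction, where both Xin proteins are known to gather, were examined beside them. The 4 markers summed to 126 to 240 CPM in WT and 104 to 134 in C2-/-. *Col22a1* and *Itga7* were lower and *Tigd4* higher by limma (25.0% and 20.2% over all genes), and after GC correction 1 was lower (*Itga7*) and 0 higher (8.33% and 12.3%). None of the 4 markers was at 0 reads in every library. Tendon markers summed to 75.6 to 195 CPM in WT and 137 to 156 in C2-/-. Of these 5, *Tnmd* was called higher and *Scx* lower (20.2% and 25.0% over all genes). After GC correction 0 were higher and 0 lower (12.3% and 8.33%). *Scx* had 1, 1 and 6 reads in C2-/-. Whether either set of markers bears on *Xirp1* or *Xirp2* was not tested.

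*Actc1* (chromosome 2, 114047282 to 114053548, minus strand) varied most within WT after *Csrp3*. Its values were 3.31, 2.24, 6.64 and 7.17 in WT and 6.09, 6.78 and 3.98 in C2-/-, from 70 to 1532 reads. The WT libraries split into 2 low and 2 high ones, and the highest of all 7 was WT replicate 4. The change was 0.78 (95% interval -1.74 to 3.31, limma adjusted p = 0.587), and the WT SD of 2.43 was at percentile 99.9 of the same genes. Markers specific to heart were not analysed here.

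*Acta1*, the adult skeletal actin, showed the opposite behaviour. It held 15.22, 15.36, 15.25 and 15.21 in WT, with an SD of 0.07, and 13.47, 12.82 and 13.43 in C2-/-, a 4.05-fold fall (change -2.02, SE 0.29, limma adjusted p = 0.000793). After GC correction this change was -0.70 and no longer past the threshold (adjusted p = 0.0938), whereas with GC and length correction it was -0.82 and past it (adjusted p = 0.0416). Cardiac actin was measured relative to it within each library, a quantity that does not depend on the library total. The 2 transcripts do differ in GC content, at 52.3% for *Actc1* and 57.0% for *Acta1*. The log2 difference *Actc1* minus *Acta1* was -11.91, -13.12, -8.61 and -8.04 in WT (-10.42 ± 2.48, SD, n = 4) and -7.37, -6.03 and -9.45 in C2-/- (-7.62 ± 1.72, SD, n = 3). The ranges overlapped, and the difference of 2.80 gave an exact two-sided permutation p of 0.2, where the smallest this design allows is 0.02857. In linear terms there were 0.112 to 3.79 *Actc1* reads per 1000 *Acta1* reads in WT and 1.42 to 15.2 in C2-/-. The transcripts of the 2 genes used here shared 0 stretches of 50 bases, so an error-free read of that length matches only 1 of them.

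**Figure D2:**
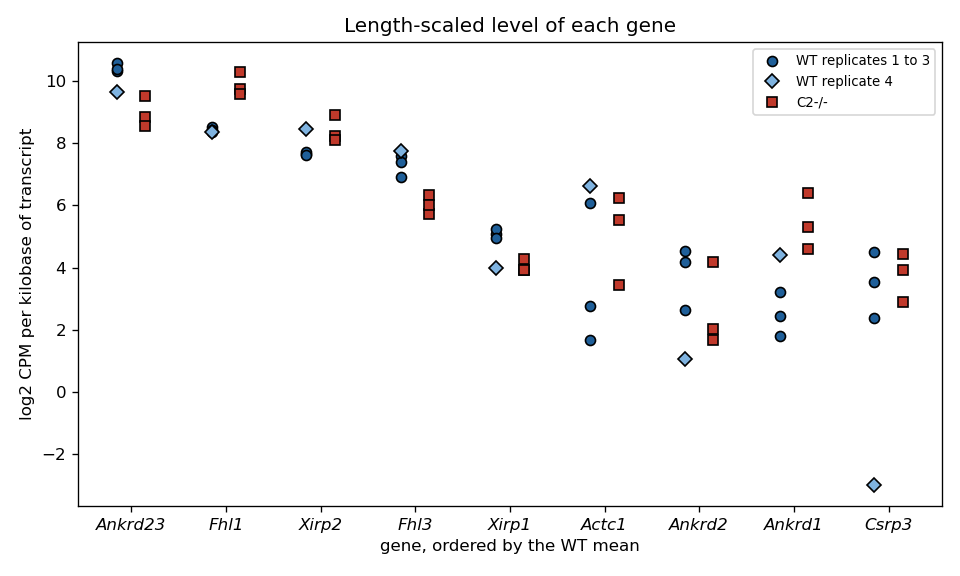
Length-scaled level of each gene, as log2 CPM per kilobase of transcript (y axis), in each WT (blue, WT replicate 4 as a light diamond) and C2-/- (red) library, with genes ordered by WT mean (x axis). *Ankrd23* and *Fhl1* exchange the first place between the groups, and *Csrp3*, *Actc1* and *Ankrd1* spread over the widest ranges of the 7 libraries.

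Levels were compared between genes per kilobase of transcript. In WT the order of the mean length-scaled level was *Ankrd23* at 10.22, *Fhl1* at 8.42, *Xirp2* at 7.86, *Fhl3* at 7.41, *Xirp1* at 4.81, *Actc1* at 4.28, *Ankrd2* at 3.10, *Ankrd1* at 2.96 and *Csrp3* at 1.85 (log2 CPM per kb). Only *Ankrd23* and *Fhl3* were separated from the next gene by ranges that did not overlap. In C2-/- *Fhl1* came first at 9.86 and *Ankrd23* second at 8.96, with ranges that did not overlap, followed by *Xirp2* at 8.40 and *Fhl3* at 6.02, whose ranges did not overlap either. *Ankrd1* took the fifth place at 5.43, though its range overlapped that of *Actc1* at 5.06. The lowest means were *Xirp1* at 4.04, *Csrp3* at 3.75 and *Ankrd2* at 2.63, each overlapping its neighbour.

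What the genes shared beyond their function was the base composition of those that moved in one direction. Over all genes the change fell with the GC content of the transcript (Spearman's rho -0.68 over 12168 genes, a description across genes), and the 9 genes gave a like value of -0.70. The 3 genes that fell had the higher GC contents, 56.0% for *Ankrd23*, 57.2% for *Fhl3* and 57.0% for *Xirp1*, and *Ankrd2* had 57.5%. All 4 lie in the GC decile of genes where the median change was -1.28 and 56.4% were called lower. The *Ankrd23* and *Fhl3* changes were thus about the median of genes of their composition. *Xirp2*, at 42.2%, also lay near its own decile, whose median change was 0.78.

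*Ankrd1* (47.9%) and *Fhl1* (50.04%) stood apart from genes of like composition. The median changes in their deciles were 0.25 and 0.01, and 22.3% and 14.9% of those genes were called higher. *Csrp3* (51.9%) and *Actc1* (52.3%) also lay above their deciles, at medians of -0.35 and -0.70, though neither passed the threshold.

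**Figure D3:**
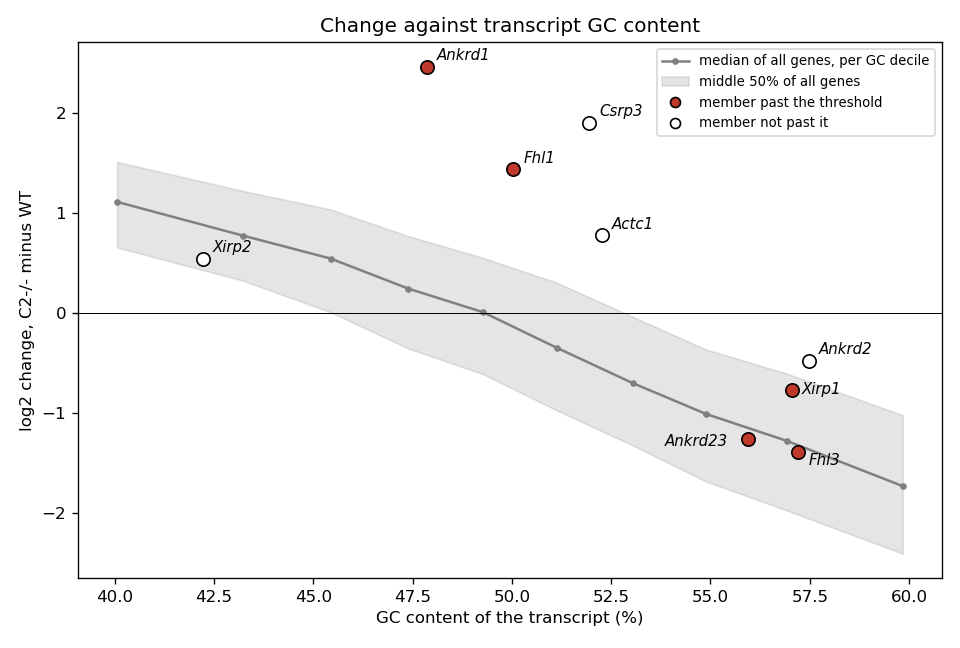
Log2 change, C2-/- minus WT (y axis), against the GC content of the transcript in percent (x axis) for the 9 genes, filled where past the threshold, with the median (line) and middle 50% (band) of all genes in each GC decile. *Ankrd23*, *Fhl3* and *Xirp1* lie in the band, and *Ankrd1* and *Fhl1* lie above it.

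The relation to GC content was then removed within each library and the fit repeated. *Ankrd1* (2.31, limma adjusted p = 0.0209) and *Fhl1* (1.62, adjusted p = 0.00169) were past the threshold, and the other 7 genes were not, where 20.6% of all genes passed, 12.3% higher and 8.33% lower. *Ankrd23* moved to -0.09 and *Fhl3* to -0.04. *Fhl3* then stood at 7.51, 7.55 and 7.52 in C2-/-, inside its corrected WT range of 6.99 to 8.21. *Xirp1* turned to 0.56 (adjusted p = 0.0831), with corrected C2-/- values of 7.22 to 7.55 that all lay above the WT values of 6.28 to 7.13. *Xirp2* turned to -0.30, *Ankrd2* to 0.91, *Csrp3* stood at 2.41 and *Actc1* at 1.34, none past the threshold. After correction 3 of the 9 genes did not overlap between the groups (*Ankrd1*, *Fhl1* and *Xirp1*), compared with 33.4% of all genes. With WT replicate 4 also left out, *Ankrd1* was at 2.79 and *Fhl1* at 1.63, both past the threshold, as were 25.7% of all genes. What links base composition to the changes was not tested.

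**Figure D4:**
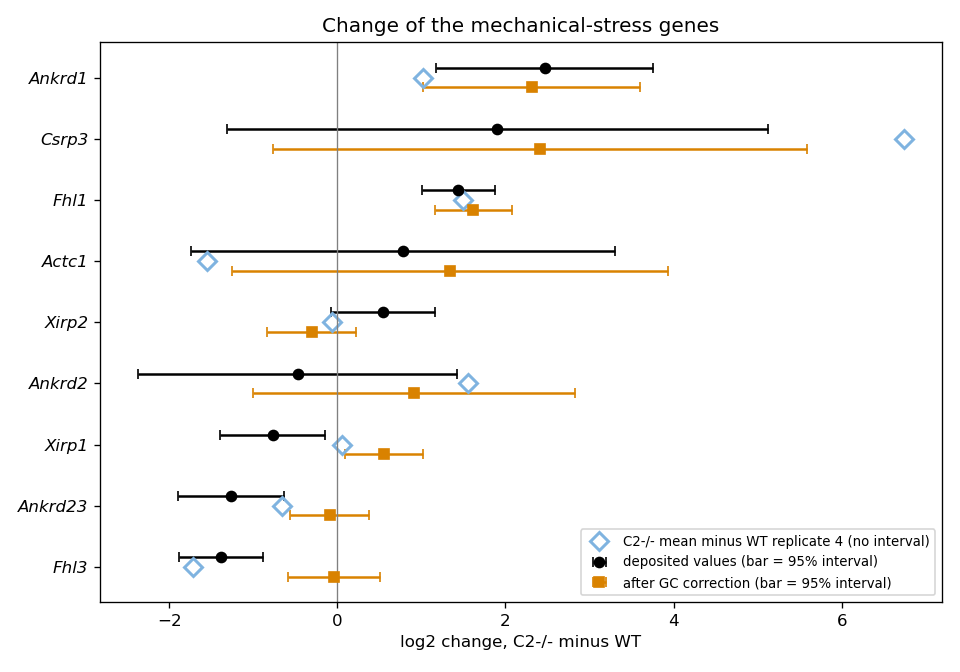
Log2 change, C2-/- minus WT (x axis), of each gene (y axis) from the deposited values (black) and after GC correction (orange), with 95% intervals, and the C2-/- mean minus WT replicate 4 (open diamonds, no interval). *Fhl1* sits at 1.44, 1.62 and 1.499, and the *Fhl3* and *Ankrd23* changes move to near 0 after correction. The *Csrp3* diamond rests on 0 reads in WT replicate 4 and depends on the 0.5 reads added before the log.

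WT replicate 4 stood outside the range of WT replicates 1 to 3 for all 9 genes, as it did for 85.5% of all genes. It was closer to C2-/- than to WT replicates 1 to 3, by group means, for 6 of the 9 genes (*Ankrd1*, *Ankrd2*, *Ankrd23*, *Xirp1*, *Xirp2* and *Actc1*), compared with 38.1% of all genes. *Csrp3*, *Fhl1* and *Fhl3* were not among them, and for each of these the distance between WT replicate 4 and C2-/- was larger than that between the other WT libraries and C2-/-.

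Genes around the 9 were then counted by limma, to see whether the wider pathway moved. Of 15 other LIM and PDZ-LIM genes of muscle, 2 were higher and 4 lower (20.2% and 25.0% over all genes), with a median change of -0.39 (-0.20 after GC correction). *Pdlim7*, an actin-associated PDZ-LIM protein, fell by 2.35 (WT 8.04 ± 0.10, n = 4, and C2-/- 5.69 ± 0.96, n = 3) and *Lims2*, a focal adhesion protein, fell by 1.71. *Lims1*, its paralog, rose by 0.80 and *Pdlim5*, a Z-disc protein, by 0.76. After GC correction 1 of the 15 was higher and 0 lower (12.3% and 8.33% over all genes), and none of these 4 was past the threshold.

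Among 15 titin I-band and Z-disc partners, 3 were higher and 7 lower (20.2% and 25.0% over all genes), with a median change of -0.36, which was 0.10 after GC correction. The ubiquitin ligase *Trim54* fell by 2.36 and *Tcap*, which caps titin at the Z-disc, by 2.24. *Nexn*, an actin-binding Z-disc protein, rose by 2.20 and *Myot*, myotilin of the Z-disc, by 1.18. *Trim54*, *Nexn* and *Myot* were also past the threshold after GC correction, at -0.69, 1.08 and 0.74. They were among 4 higher and 1 lower of the 15 (12.3% and 8.33% over all genes). *Tcap* stood at -0.44 (limma adjusted p = 0.155). The corrected *Nexn* value of 11.51 in WT replicate 4 lay above the 11.29 of C2-/- replicate 3. *Ttn*, which encodes the binding partner of the ankyrin repeat proteins, had a change of 0.59 (adjusted p = 0.132).

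For the 18 analysed genes of serum response factor and YAP signalling, 4 were higher and 4 lower (20.2% and 25.0% over all genes), with a median change of 0.11 (0.42 after GC correction). *Wwtr1*, which encodes the YAP paralog TAZ, rose by 1.68 from 5.31, 5.31, 5.35 and 5.29 in WT to 6.79, 7.42 and 6.76 in C2-/-, and it was past the threshold under all 21 alternatives. The TEAD cofactor *Vgll2* rose by 0.94, and by 2.72 after GC correction. *Srf* fell by 1.30 and its coactivator *Mkl1* by 1.18, but after GC correction *Srf* was 0.74 higher (adjusted p = 0.0373) and *Mkl1* stood at 0.35. In that fit 5 of the 18 were higher and 0 lower (12.3% and 8.33% over all genes). The direct YAP targets *Ctgf* and *Cyr61* had changes of 0.23 and -0.03, adjusted p = 0.721 and 0.926.

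Of the 5 other actin genes 3 were lower (*Acta1*, *Actb* and *Actg1*) and 0 higher (25.0% and 20.2% over all genes), with a median change of -0.94, and after GC correction 0 of the 5 passed and the median was -0.57. *Actg1*, a cytoplasmic actin, fell by 1.39. Of 13 analysed regeneration and embryonic sarcomere genes, 2 were higher and 4 lower (20.2% and 25.0% over all genes), and 2 and 2 after GC correction (12.3% and 8.33%). Perinatal myosin *Myh8* fell by 2.97, from 6.40, 5.64, 5.05 and 3.73 in WT to 2.41, 1.83 and 2.46 in C2-/-. *Myog*, a myogenic factor of differentiation, fell by 3.54, a value that rests on 0 reads in 2 C2-/- libraries, and was at -2.55 after GC correction, not past the threshold (adjusted p = 0.0658). *Myf5*, at 1 to 20 reads, had a change of 1.95 whose call was lost in 6 of 7 fits that left out a library and after GC correction (1.04, adjusted p = 0.309). The cell cycle inhibitor *Cdkn1a* rose by 0.82, a call lost in 4 of those 7 fits, and by 1.75 after GC correction. Embryonic myosin *Myh3* had a change of 0.92 (adjusted p = 0.493), with 0 reads in WT replicate 4, and of -0.11 without that library. Macrophage markers summed to 10.5 to 25.7 CPM in WT and 24.0 to 38.5 in C2-/-. Of these 4, 1 (*Cd163*) was called higher (20.2% over all genes), and 1 after GC correction (12.3%). Smooth muscle markers summed to 110 to 186 CPM in WT and 127 to 183 in C2-/-. Of these 4, 1 (*Tagln*) was called lower and 0 higher (25.0% and 20.2% over all genes). After GC correction 0 were lower and 1 higher (8.33% and 12.3%). Endothelial markers summed to 258 to 407 and 239 to 312. Of these 4, 0 were called before or after GC correction (45.2% and 20.6% over all genes). Their part in the changes above was not tested.

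The genes with the pattern most like each of the 3 members of widest range were found by Pearson's r of log2 values over the 7 libraries, given as a description. For *Csrp3* they were *Tbcel* (0.969), *Etv3* (0.968) and *Tada1* (0.967), which were all lowest in WT replicate 4. For *Actc1* they were *Mrpl55* (0.856), *Pmp22* (0.849) and *Grb14* (0.848). For *Ankrd1* they were *Ybx3* (0.978), *Tmem68* (0.978) and *Setd1b* (0.972), which all rose in C2-/- and stood higher in WT replicate 4 than in the other WT libraries. The libraries share their depth and base composition across all of these genes.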

How the data were processed

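The members and gene lists were chosen with earlier results of these data known. The authors aligned reads to GRCm38.p6 with HISAT, counted them with featureCounts 1.5.2 and deposited log2 TMM-scaled CPM for 12239 genes. Their second table (log2 fold changes and p-values from their own comparison) was not used. Each deposited log2 value was the log2 of a whole read count plus 0.5, scaled to 1e6 reads, so reads were recovered (100.0% whole, within 0.001).

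The main test was limma 3.58.1 in R 4.3.3 (lmFit, eBayes with trend) on the deposited values, all 7 libraries, genotype only, two-sided, with Benjamini-Hochberg adjustment over all genes. For GC correction a natural spline (5 degrees of freedom) on transcript GC content, matched for 12168 genes (99.4%), was fitted per library and exchanged for the average curve. Fits were tested on simulated data. The floor of 3 reads corresponds to 0.195 to 1.12 CPM by library and covers counting error only. The titin partner list is counted over 15 genes, and a further gene first listed there is not reported here. The named genes were the members, *Mybpc2*, *Acta1*, from each list the 2 largest rises and falls past the threshold without overlap, and the 3 nearest patterns of 3 members. *Ttn*, *Ctgf*, *Cyr61*, *Myh3*, the slow markers and the called markers were named after their values were seen. The alternatives were voom on recovered reads, other scalings and filters, thinning, GC corrections, the read total, each library left out and a replicate block. The fit combining GC correction with WT replicate 4 left out was added after the data were seen.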

Additional observations from a re-analysis of the deposited data

Results flagged for a closer look

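In groups of 4, a single WT library stood far from the other 3 for 4 of 30 values tested by Dixon's criterion, with about 1.5 to be had by chance. WT replicate 4 accounted for 3 of the 4. That library held 4683853 reads in the table, against at least 14929214 in the others. It had *Xirp2* at 12.04, against at most 11.30, and *Nexn* at 11.30, against at most 9.73. The other value was *Lims2* in WT replicate 3, at 5.41 against at most 4.90.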

How the results depend on the processing

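Of the 9 genes 5 were past the threshold. The count was 2 with GC correction, 3 with GC and length correction (where *Xirp1* passed as higher), 3 with the read total as a covariate, 3 with WT replicate 4 as the only WT library and 2 with GC correction and WT replicate 4 left out. In the same order, the genes past the threshold over the whole table were 2504, 2507, 744, 554 and 3122, against 5528. *Csrp3*, with 0 reads in WT replicate 4, was among the 3 with the read total (7.40) and with WT replicate 4 as the only WT library (6.74), beside *Fhl1* and *Fhl3*. The list genes were 15, 19, 5, 6 and 15 in that order, against 33. At an adjusted p under 0.01 there were 3216 genes. *Mybpc2* kept its direction and side of the threshold under every alternative run. The *Actc1* to *Acta1* difference kept its direction, but with a library left out or with the block its p could not go under 0.05.

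Directions turned under the same 5 fits. *Ankrd2* was at 0.91, 0.71, 1.39, 1.56 and 0.34, *Xirp1* at 0.56, 0.61, 0.10, 0.055 and 0.39, and *Xirp2* at -0.30, -0.38, -0.33, -0.059 and -0.17. *Actc1* was at -2.84 with the read total and -1.55 against WT replicate 4. *Fhl3* was at 0.18 with GC correction and WT replicate 4 left out. Under GC correction, GC and length correction and GC correction without WT replicate 4, *Lims1* was at -0.20, -0.16 and -0.35, *Mkl1* at 0.35, 0.43 and 0.32, and *Srf* at 0.74, 0.87 and 0.89. Leaving out 1 library at a time gave -1.25 to 0.0090 for *Ankrd2* and -0.087 to 1.5995 for *Actc1*, which turned without WT replicate 1 (0.0021) or C2-/- replicate 1 and without WT replicate 2, respectively. The cause was not tested. Centring each library on its median shifted all changes by 0.16 and turned none of the 9, though *Xirp1* lost its call (-0.61), as it did with eBayes without trend. *Csrp3* was not tested under the filter at a mean of 3 log2 CPM.

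The replicate numbers did not pair the samples, since deviations of same-numbered libraries had r of -0.04, -0.02 and -0.05. With the replicate block, which drops WT replicate 4, 6 of the 9 genes were past the threshold, *Xirp2* (0.74) among them, and 5929 genes over the whole table. The block gave *Mybpc2* at -11.85, 35 list genes past the threshold and 3.59 for *Actc1* minus *Acta1* (exact permutation p = 0.5, smallest possible 0.25). Depth limits *Csrp3*, *Ankrd2*, *Myog*, *Myf5*, *Myh8*, *Myh3* and *Scx*, which had 10 reads or fewer in at least 1 library.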
